A study of Mus musculus with 22 samples.

Results

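The organic anion transporters studied here were 10 genes, Slc22a6, Slc22a7, Slc22a8, Slc22a12, Slc22a13, Slc22a18, Slc22a19, Slc22a30, Slco1a1 and Slco4c1, picked by symbol from the 32858 genes that the kidney count table lists. All 10 were among the 17131 genes with enough counts to be tested. The 22 libraries came from kidneys of male C57Bl6/J mice aged 8 to 10 weeks, and each was read as coming from 1 mouse. The vehicle group (n = 5) received a carrier of 15% DMSO, 15% cremophor and 70% saline, and the KW6002 group (n = 6) received KW6002 at 3 mg/kg daily from day -5 to day 7. KW6002 is istradefylline, an adenosine receptor antagonist. The cisplatin group (n = 5) had 6 daily injections of cisplatin at 3 mg/kg, and the co-treated group (n = 6) had both drugs on these schedules. All mice were killed on day 8, which was 72 hours after the last cisplatin injection. Whether mice given cisplatin alone also received the carrier is not given in the sources used here.

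Organic anion transporters carry drugs, toxins, bile salts, steroid conjugates and metabolic waste such as urate and indoxyl sulfate across cell membranes. In the kidney most of them sit in the proximal tubule, where carriers of the basolateral membrane take anions up from blood and carriers of the apical membrane pass them to urine or take them back. OAT1 (Slc22a6) and OAT3 (Slc22a8) exchange blood anions for dicarboxylates, URAT1 (Slc22a12) reabsorbs urate, and the SLCO family, also called OATPs, prefers larger amphipathic anions. The RNA of these genes was compared between the groups to see how far it changed with cisplatin and how far KW6002 changed it further. Levels are given as CPM, counts in relation to the TMM-normalized library total, and changes as log2 fold changes with their standard errors (SE) from 1 edgeR quasi-likelihood fit to the 22 libraries. P-values were adjusted over all 17131 genes, and a gene was read as changed at an adjusted p below 0.05. In whole kidney, fewer cells of a type and less RNA in each cell cannot be told apart.

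Library totals ran from 26471762 to 40510754 counts. The numbers in the sample labels lie in the 300s for 3 vehicle and 3 KW6002 kidneys and in the 500s for the other 16. They were read as mouse numbers, which the labels do not state. The 12 proximal tubule marker genes were expressed in every library, at a summed 26993 to 28059 CPM with vehicle, 9056 to 14400 CPM with cisplatin and 12071 to 18897 CPM with co-treatment. The 3 tubular injury genes Havcr1, Lcn2 and Krt20 summed to 6.18 to 8.00 CPM with vehicle, 1262 to 2401 CPM with cisplatin and 329.6 to 728.7 CPM with co-treatment. Liver genes summed to 24.8 to 30.7 CPM with vehicle and 126 to 159.9 CPM with cisplatin and 66.6 to 128 CPM with co-treatment, fat genes to 29.1 to 363 CPM with vehicle, 130.2 to 235 CPM with cisplatin and 3.14 to 84.2 CPM with co-treatment, and adrenal genes reached 40.6 CPM in co-treated replicate 6 against at most 2.53 CPM in any vehicle, KW6002 or cisplatin library. Their part in the results was not tested.

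Of the 10 genes, 5 lie on chromosome 19. Slc22a8 (chr19:8591254-8611835, plus strand) and Slc22a6 (chr19:8618039-8628299, plus strand) follow each other with 6203 bases between them in the mm10 build. Slc22a12 (chr19:6535845-6543032), Slc22a19 (chr19:7673061-7711310) and Slc22a30 (chr19:8335371-8405111) lie on the minus strand of the same chromosome. The others are Slc22a7 (chr17:46432183-46438457, minus strand), Slc22a13 (chr9:119192974-119209098, minus strand), Slc22a18 (chr7:143473736-143499334, plus strand), Slco1a1 (chr6:141907282-141946962, minus strand) and Slco4c1 (chr1:96816270-96872171, minus strand). Of all 50-base windows in its transcripts, Slc22a13 shared 36.01% with the pseudogene Slc22a13b-ps, Slc22a30 shared 34.3% mainly with Slc22a28, and Slc22a12 shared 27.4% with Nrxn2, which overlaps it on the opposite strand, so that their counts are less certain. The other 7 genes shared at most 1.64% of their windows. Slc22a14 on the same strand overlaps Slc22a13, and the sources used here do not say whether counting was by strand.

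Start sites are shown for 4 genes: the adjacent pair Slc22a6 and Slc22a8, whose counts moved unequally with cisplatin, and Slc22a30 and Slco1a1, which fell most. The sequences are RefSeq entries of GRCm38.p6, 250 bases before the start, written 5′ to 3′ on the strand of the gene. They cover chr19:8617746-8617995 (Slc22a6, plus strand), chr19:8592932-8593181 (Slc22a8, plus strand), chr19:8405106-8405355 (Slc22a30, minus strand) and chr6:141946963-141947212 (Slco1a1, minus strand). Capitals would mark the letters CAAAGTCCA, a site of the tubule factor HNF4A, on either strand, and the 4 windows hold none.
Slc22a6: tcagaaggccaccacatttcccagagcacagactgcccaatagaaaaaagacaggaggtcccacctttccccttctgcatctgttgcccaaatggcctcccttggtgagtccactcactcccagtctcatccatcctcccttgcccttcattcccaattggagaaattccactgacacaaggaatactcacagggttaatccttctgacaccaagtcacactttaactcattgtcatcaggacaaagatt
Slc22a8: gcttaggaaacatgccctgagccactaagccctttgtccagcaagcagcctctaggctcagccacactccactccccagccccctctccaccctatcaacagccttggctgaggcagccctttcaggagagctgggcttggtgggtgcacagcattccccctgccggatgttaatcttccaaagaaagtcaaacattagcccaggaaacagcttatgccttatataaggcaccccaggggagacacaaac
Slc22a30: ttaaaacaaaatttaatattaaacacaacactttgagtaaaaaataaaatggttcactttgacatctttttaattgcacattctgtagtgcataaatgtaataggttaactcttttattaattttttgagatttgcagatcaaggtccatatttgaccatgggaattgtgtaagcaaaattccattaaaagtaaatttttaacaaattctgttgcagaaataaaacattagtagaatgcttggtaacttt
Slco1a1: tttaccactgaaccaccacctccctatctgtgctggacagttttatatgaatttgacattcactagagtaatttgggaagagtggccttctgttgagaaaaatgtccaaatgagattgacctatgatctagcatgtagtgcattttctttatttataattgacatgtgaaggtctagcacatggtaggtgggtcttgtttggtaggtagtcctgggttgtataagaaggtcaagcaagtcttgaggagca
Of the 10 genes 9 had an entry. These HNF4 letters, searched exactly on both strands, were found in 0 of the 9 and in 0.384% of all 32851 entries. In the GENCODE annotation the window of Slc22a8 lies inside the span of the gene.

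**Figure D1:**
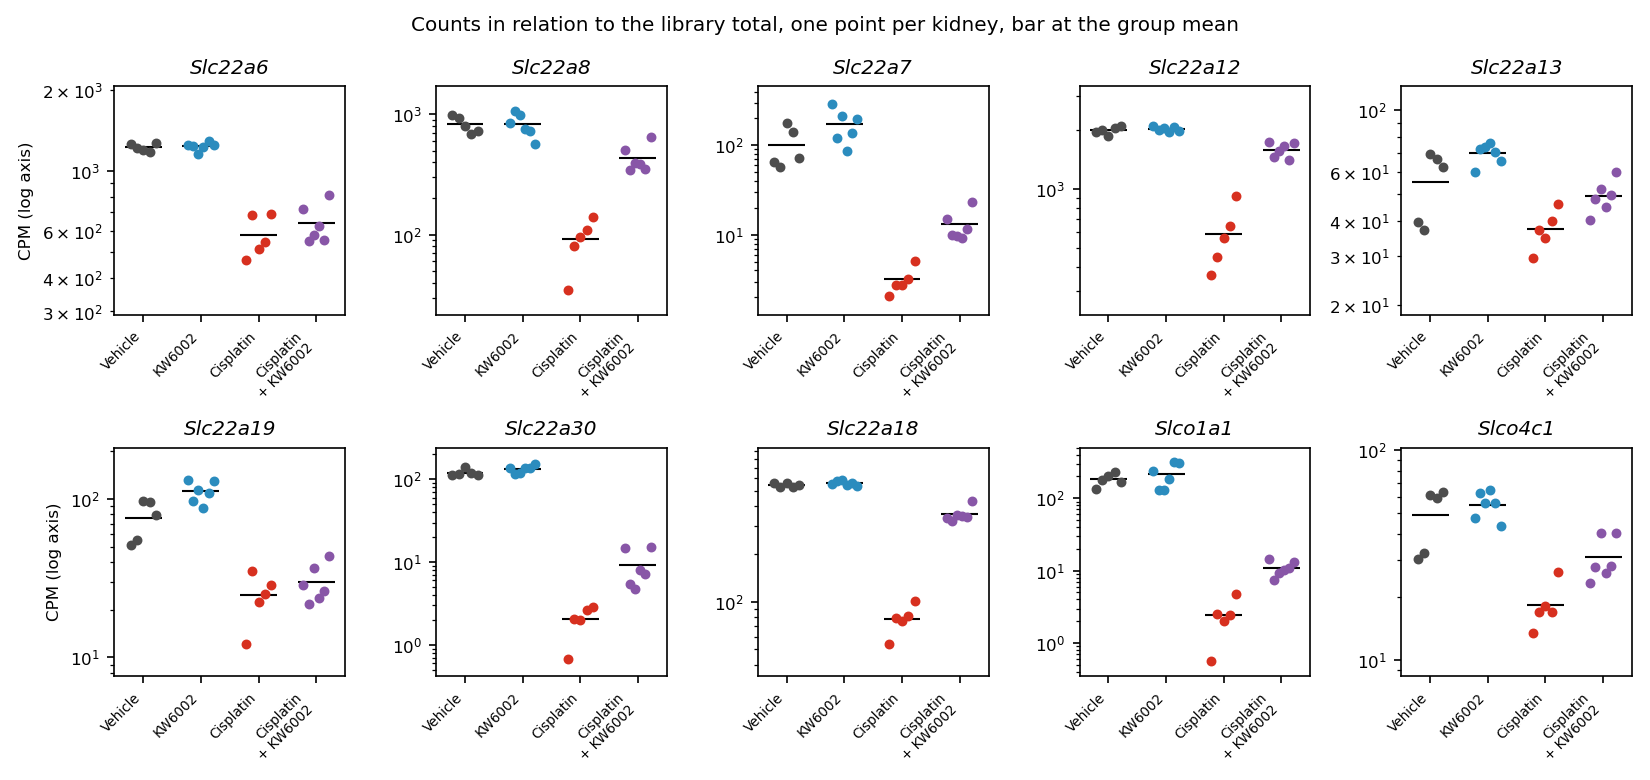
Levels of the 10 transporter genes in each kidney (CPM, log axis), with 1 point per library and a bar at the group mean. With cisplatin, 9 of the 10 genes lay below every vehicle kidney (27.9% of tested genes did). Slc22a6 and Slc22a19 were the 2 genes whose co-treated kidneys were not called apart from the cisplatin kidneys. The other 8 were called higher, as were 28.6% of tested genes.

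In vehicle kidneys, and per kilobase of exon, Slc22a12 had the highest level at 887 ± 40.8 CPM per kb (SD, n = 5), followed by Slc22a18 at 321 ± 8.66, Slc22a6 at 308 ± 9.64 and Slc22a8 at 212 ± 32.5. The middle of the order was Slc22a7 (48.6 ± 25.3 CPM per kb), Slc22a30 (35.7 ± 3.44), Slco1a1 (34.6 ± 7.05) and Slc22a13 (27.5 ± 7.71). Slc22a19 (13.9 ± 4.02 CPM per kb) and Slco4c1 (10.0 ± 3.38) were lowest. Ranges did not overlap between Slc22a12 and Slc22a18, Slc22a6 and Slc22a8, Slc22a8 and Slc22a7, or Slc22a13 and Slc22a19, and the other neighbours in the order did overlap. With cisplatin Slc22a7 moved from rank 5 to rank 8, Slc22a30 from rank 6 to rank 9 and Slco1a1 from rank 7 to rank 10, below Slc22a13, Slc22a19 and Slco4c1.

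The RNA of all 10 transporters fell with cisplatin. The background was 35.9% of tested genes called lower at this threshold. Their median log2 fold change against vehicle was -2.28, against -0.01 over all tested genes. The changes ran from -6.23 for Slco1a1 to -0.56 for Slc22a13. The study's thresholds required an adjusted p under 0.01 together with a log2 change past 1 in size, and by them 9 of the 10 were lower (12.1% of tested genes). For the same number, every cisplatin kidney lay below every vehicle kidney (27.9% of tested genes), and the exception to both was Slc22a13.

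Slc22a6 (OAT1, the classical basolateral p-aminohippurate carrier) measured 1262, 1220.3, 1200.0, 1179 and 1268 CPM in vehicle replicates 1 to 5. In cisplatin replicates 1 to 5 it measured 467, 683, 511, 542 and 693 CPM. The vehicle kidneys were close to each other and all above the cisplatin kidneys. The fitted change was -1.08 (SE 0.11, edgeR adjusted p = 5.61e-09), which left 47.3% of the vehicle level. Slc22a8 (OAT3, with a wide range of drug and hormone substrates) measured 995, 925, 806, 694 and 733 CPM with vehicle and 34.6, 80.4, 95.1, 109.7 and 140.4 CPM with cisplatin. Its groups lay far apart, and its log2 fold change was -3.17 (SE 0.27, edgeR adjusted p = 4.29e-10), leaving 11.1% of the vehicle level. Slc22a7 (OAT2, a carrier of cyclic nucleotides and glutamate) varied widely between vehicle kidneys, at 65.1, 56.7, 176, 139.7 and 72.1 CPM. With cisplatin it measured 2.05, 2.79, 2.72, 3.18 and 5.15 CPM, from 77 to 182 counts per library. Even the lowest vehicle kidney was above all of these, and the log2 fold change was -5.01 (SE 0.41, edgeR adjusted p = 2.40e-10).

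Among the apical carriers, Slc22a12 (URAT1) measured 1975, 2013, 1872, 2065 and 2113 CPM with vehicle. With cisplatin it measured 363, 449, 562, 650.1 and 925 CPM. These groups did not overlap, and the log2 fold change was -1.77 (SE 0.15, edgeR adjusted p = 7.24e-10). Slc22a13 (OAT10, an apical carrier of nicotinate and urate) measured 39.5, 37.3, 69.6, 66.5 and 62.3 CPM with vehicle and 29.5, 37.2, 34.7, 39.9 and 45.9 CPM with cisplatin. Vehicle replicates 1 and 2 fell within the cisplatin range, and the log2 fold change was -0.56 (SE 0.15, edgeR adjusted p = 0.00216), or -0.79 among the mice numbered in the 500s. Slc22a19 (OAT5, an apical dicarboxylate exchanger) measured 50.9, 55.1, 96.9, 96.0 and 78.8 CPM with vehicle and 12.1, 35.3, 22.2, 25.3 and 28.4 CPM with cisplatin. Its groups did not overlap, with a log2 fold change of -1.61 (SE 0.24, edgeR adjusted p = 2.28e-06).

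Slco1a1 and Slc22a30 had the largest falls of the 10. Slc22a30, a rodent gene of the SLC22 cluster on chromosome 19, measured 112, 115, 140.2, 119 and 113 CPM with vehicle and 0.666, 2.03, 2.00, 2.65 and 2.89 CPM with cisplatin. In counts cisplatin replicate 1 held 25 counts of this gene, against 2870 to 4173 in the vehicle libraries, and the log2 fold change was -5.88 (SE 0.31, edgeR adjusted p = 1.07e-13), a level 58.7-fold lower. Slco1a1 (OATP1A1, an apical carrier of bile salts and steroid conjugates) measured 135, 176, 201, 234 and 166 CPM with vehicle and 0.559, 2.51, 2.03, 2.41 and 4.70 CPM with cisplatin. Its log2 fold change was -6.23 (SE 0.37, edgeR adjusted p = 7.88e-13), a level 75.0-fold lower. Slc22a18 (ORCTL2, a member of the family whose substrates are little known) stayed within 529.5 to 561 CPM with vehicle and measured 54.3, 79.2, 75.5, 81.8 and 101 CPM with cisplatin. It had the smallest adjusted p of the 10, with a log2 fold change of -2.80 (SE 0.11, edgeR adjusted p = 1.27e-15). Slco4c1 (OATP4C1, a basolateral carrier of digoxin and thyroid hormone) measured 30.2, 32.2, 61.4, 59.4 and 63.4 CPM with vehicle and 13.4, 17.0, 18.1, 17.0 and 26.4 CPM with cisplatin. Its groups did not overlap either, with a log2 fold change of -1.43 (SE 0.21, edgeR adjusted p = 3.23e-06).

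**Figure D2:**
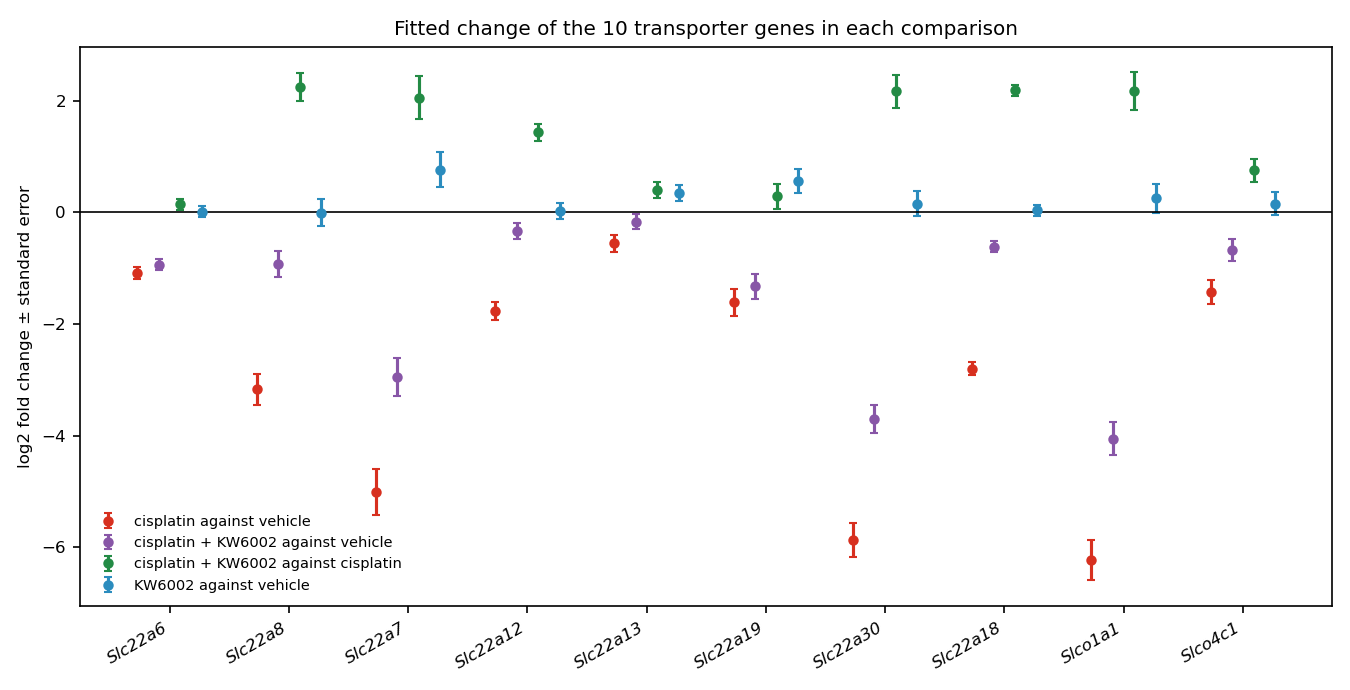
Log2 fold change of each transporter gene (points) with its standard error (bars) in 4 comparisons. With cisplatin the changes ran from -0.56 to -6.23, with KW6002 added to cisplatin from 0.14 to 2.25, and with KW6002 alone from -0.0045 to 0.77.

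When KW6002 was added to cisplatin, 8 of the 10 genes were higher than with cisplatin alone (28.6% of tested genes were called higher), and none was lower. Slc22a6 and Slc22a19 did not pass the test. The median log2 fold change of the 10 was 1.74, against 0.01 over all tested genes. By the study's thresholds 6 were higher (4.65% of tested genes), namely Slc22a8, Slc22a7, Slc22a12, Slc22a30, Slc22a18 and Slco1a1. In these same 6, each co-treated kidney lay above each cisplatin kidney (19.3% of tested genes). This comparison and the comparison with vehicle share the cisplatin libraries.

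Slc22a8 reached 342 to 645 CPM in the co-treated kidneys, with a median of 389.6, a log2 fold change of 2.25 (SE 0.25, edgeR adjusted p = 1.31e-07). Its chromosomal neighbour Slc22a6 measured 548 to 814 CPM with a median of 602, and its change was 0.14 (SE 0.10, edgeR adjusted p = 0.236, 95% interval -0.06 to 0.34). Slc22a6 overlapped with the cisplatin group and Slc22a8 did not. Slc22a7 was at 9.13 to 23.3 CPM (median 10.9), all above the highest cisplatin kidney, with a log2 fold change of 2.05 (SE 0.39, edgeR adjusted p = 1.07e-04).

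Slc22a12 was at 1416 to 1735 CPM (median 1618) with co-treatment, and rose by 1.43 on the log2 scale (SE 0.15, edgeR adjusted p = 3.95e-08). Slc22a13 was at 40.4 to 59.7 CPM (median 48.9), with a change of 0.39 (SE 0.14, edgeR adjusted p = 0.0240). This call was lost without cisplatin replicate 1 (adjusted p = 0.0782), cisplatin replicate 3 (adjusted p = 0.0551) or co-treated replicate 6 (adjusted p = 0.0669, all edgeR), and its groups overlapped. Slc22a19, at 21.6 to 43.7 CPM (median 27.5), had a change of 0.29 (SE 0.23, edgeR adjusted p = 0.290, 95% interval -0.16 to 0.73).

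Slc22a18 was at 322 to 434 CPM (median 344.8) and rose by 2.18 (SE 0.10, edgeR adjusted p = 5.90e-13). Slc22a30, at 4.77 to 15.0 CPM (median 7.52), rose by 2.17 (SE 0.29, edgeR adjusted p = 1.79e-06), and Slco1a1, at 7.47 to 14.4 CPM (median 10.6), rose by 2.17 as well (SE 0.34, edgeR adjusted p = 1.14e-05). Both stayed far below vehicle, Slc22a30 by 13.05-fold and Slco1a1 by 16.7-fold. Slco4c1 was at 23.2 to 40.2 CPM (median 27.9) and rose by 0.75 (SE 0.21, edgeR adjusted p = 0.00359), with overlap between the groups.

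Against vehicle, 9 of the 10 genes were lower in co-treated kidneys (29.9% of tested genes were called lower), 4 of them by the study's thresholds (7.59% of tested genes), and in 8 the groups did not overlap (18.5% of tested genes). The 4 were Slc22a7 at -2.96 (SE 0.34), Slc22a19 at -1.33 (SE 0.22), Slc22a30 at -3.71 (SE 0.25) and Slco1a1 at -4.06 (SE 0.30). Slc22a6 was at -0.94 (SE 0.10), Slc22a8 at -0.92 (SE 0.24), Slc22a18 at -0.61 (SE 0.10) and Slco4c1 at -0.68 (SE 0.20). Slc22a12 was at -0.33 (SE 0.14) with an edgeR adjusted p of 0.0497, which rose above 0.05 without 17 of the 22 libraries taken one at a time, up to 0.0959, and to 0.278 with scaling by library size. Slc22a13 was at -0.16 (SE 0.14, edgeR adjusted p = 0.330), but among the mice numbered in the 500s it was at -0.39 (adjusted p = 0.0210). In that subset Slc22a8 was at -0.70 and did not pass (adjusted p = 0.0747). This comparison shares libraries with both comparisons above.

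With KW6002 alone, 0 of the 10 genes differed from vehicle in edgeR (0.0175% of tested genes did), and 0 of the 10 did in DESeq2. At an unadjusted p below 0.05 there were 3 genes (11.3% of tested genes), all higher with KW6002: Slc22a7 at 0.77 (SE 0.32, edgeR adjusted p = 0.355), Slc22a13 at 0.34 (SE 0.14, edgeR adjusted p = 0.360) and Slc22a19 at 0.57 (SE 0.22, edgeR adjusted p = 0.333). Slc22a6 measured 1154 to 1292 CPM with a median of 1242 with KW6002 and differed from vehicle by 0.01 (SE 0.10, 95% interval -0.19 to 0.21). For Slc22a8, at 571 to 1077 CPM with a median of 804, the interval was -0.47 to 0.46. Slc22a8 was higher in the mice numbered in the 300s than in those numbered in the 500s. It measured 806 to 995 against 694 to 733 CPM with vehicle, and 849 to 1077 against 571 to 759 CPM with KW6002. No other of the 10 genes separated by series in both groups. Slc22a12 with vehicle went the other way, at 1872 to 2013 CPM in the 300s and 2065 to 2113 CPM in the 500s. How many of all tested genes separate in this way was not counted, so whether Slc22a8 stands out cannot be said. Among the mice numbered in the 500s alone, all 10 genes were still called lower with cisplatin than with vehicle, as were 5635 of all genes. Vehicle replicates 1 and 2 were both below the other 3 vehicle kidneys in 4 of the 10 genes, Slc22a7, Slc22a13, Slc22a19 and Slco4c1, a position that both held in 19.3% of all tested genes.

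The KW6002 effect in the presence of cisplatin was larger than its effect without cisplatin in 6 of the 10 genes (22.8% of tested genes had a positive difference), and 5 passed the study's thresholds (4.24% of tested genes). The differences on the log2 scale were 2.26 for Slc22a8 (SE 0.34), 2.14 for Slc22a18 (SE 0.14), 2.02 for Slc22a30 (SE 0.37), 1.92 for Slco1a1 (SE 0.43), 1.42 for Slc22a12 (SE 0.20) and 1.29 for Slc22a7 (SE 0.49). The call for Slc22a7 (edgeR adjusted p = 0.0396) was lost without 11 of the 22 libraries taken one at a time, with adjusted p up to 0.0951. Slco4c1 had a difference of 0.59 (SE 0.28, edgeR adjusted p = 0.0979), which passed without vehicle replicate 1 (0.73, adjusted p = 0.0319), vehicle replicate 2 (0.71, adjusted p = 0.0411) or cisplatin replicate 5 (0.76, adjusted p = 0.0309). It was 0.92 (adjusted p = 0.0223) among the mice numbered in the 500s and 0.91 (adjusted p = 0.00399) without vehicle replicates 1 and 2 together, a setting chosen after seeing the data. For Slc22a6 the difference was 0.13 (SE 0.14, 95% interval -0.15 to 0.41).

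The ratio of the counts of 2 genes within a library does not depend on how libraries are scaled, and it was taken for 3 pairs on chromosome 19, of which Slc22a8 and Slc22a6 are adjacent. The pairs were chosen after their values were seen, and 12 ratio tests were run. The adjusted p-values cover these 12 tests and not the choice of pairs, so that they may overstate how unusual the chosen ratios are. Counts of Slc22a8 were 0.677 ± 0.0957 times those of Slc22a6 with vehicle (SD, n = 5), 0.157 ± 0.0579 with cisplatin and 0.676 ± 0.0656 with co-treatment. On the log2 scale cisplatin differed from vehicle by -2.20 (2-sided exact permutation p = 0.00794, adjusted 0.0119, the smallest p that 5 against 5 can give). Co-treated and cisplatin kidneys differed by 2.21 (exact permutation p = 0.00433, adjusted 0.0104, the smallest for 6 against 5), and co-treated and vehicle kidneys by 0.0045 (exact permutation p = 0.957). The ratio of Slc22a12 to Slc22a6 was 1.64 ± 0.0795 with vehicle, 1.01 ± 0.286 with cisplatin and 2.52 ± 0.228 with co-treatment, so that co-treated kidneys exceeded vehicle kidneys by 0.62 on the log2 scale (exact permutation p = 0.00433, adjusted 0.0104). The ratio of Slc22a30 to Slc22a19 was 1.68 ± 0.431 with vehicle, 0.0818 ± 0.0240 with cisplatin and 0.308 ± 0.128 with co-treatment, and on the log2 scale cisplatin differed from vehicle by -4.38 (exact permutation p = 0.00794, adjusted 0.0119).

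**Figure D3:**
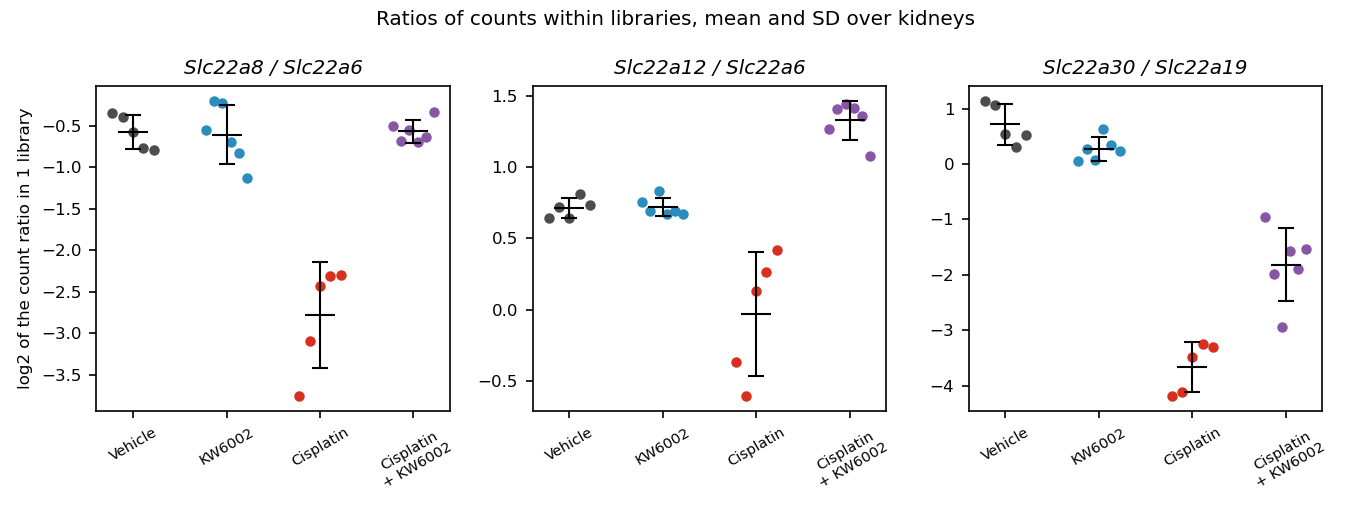
Log2 ratio of the counts of 2 genes within each library (points), with the group mean and SD. The Slc22a8 to Slc22a6 ratio with co-treatment, at 0.676 ± 0.0656, overlapped with vehicle. In every co-treated kidney it lay above the 2 vehicle kidneys numbered in the 500s. The Slc22a12 to Slc22a6 ratio lay above all vehicle kidneys in every co-treated kidney.

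Together the 10 genes held 70.4% ± 0.615 of all counts on listed SLC22 and SLCO genes with vehicle, 70.7% ± 0.531 with KW6002, 52.7% ± 5.41 with cisplatin and 67.4% ± 1.24 with co-treatment. In summed CPM they went from 5194 ± 24.7 to 1428 ± 359 with cisplatin and to 3171 ± 394 with co-treatment. The share of Slc22a6 was 16.6% ± 0.548 with vehicle, 21.6% ± 2.26 with cisplatin and 13.6% ± 0.801 with co-treatment, and that of Slc22a12 was 27.2% ± 1.44, 21.5% ± 4.89 and 34.0% ± 1.70. Slco1a1 went from 2.47% ± 0.506 with vehicle to 0.0862% ± 0.0417 with cisplatin and 0.231% ± 0.0378 with co-treatment. These shares are of counts and not of molecules, since longer transcripts give more fragments.

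**Figure D4:**
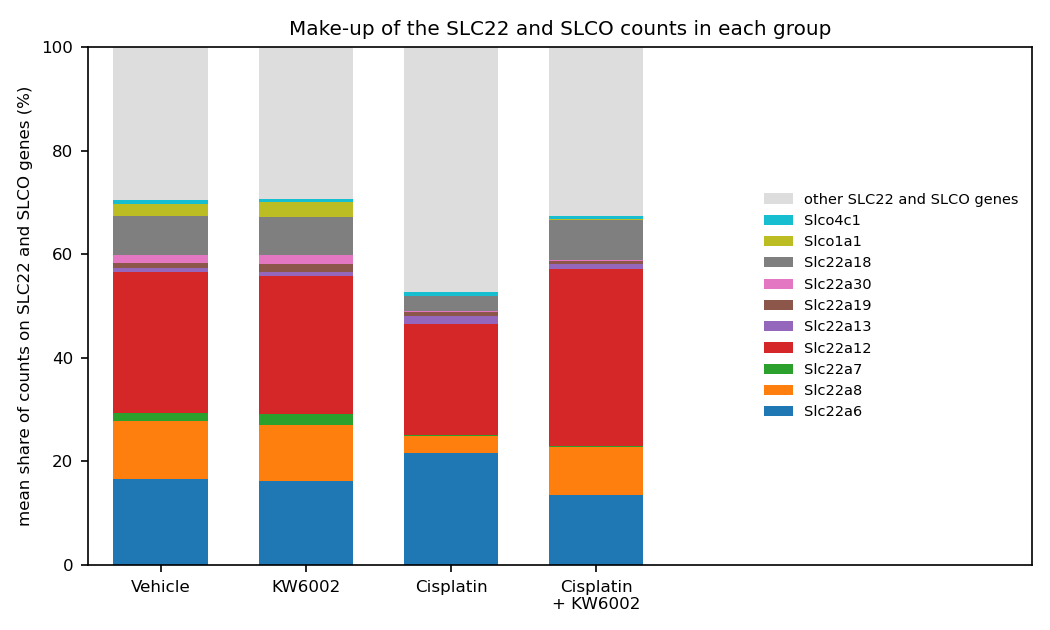
Mean share of the 10 genes in the counts of all listed SLC22 and SLCO genes (percent, stacked) in each group. The 10 genes together fell from 70.4% with vehicle to 52.7% with cisplatin and stood at 67.4% with co-treatment.

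Among the cisplatin and co-treated kidneys, single mice were lowest or highest for most of the 10 genes, whereas no vehicle kidney held either place for more than 4 genes and no KW6002 kidney for more than 3. For 10 of the 10 genes the lowest cisplatin kidney was replicate 1 (lowest for 25.2% of all tested genes), and replicate 5 was the highest for 9 (29.8% of all tested genes). The mean log2 CPM of the proximal tubule markers followed, at 7.48 in replicate 1 and 8.48 in replicate 5, and Lcn2, the NGAL gene, was lowest in replicate 5 at 539.5 CPM against 1309 CPM or more in the other 4. Havcr1, the KIM-1 gene, did not follow this order, at 586.5 CPM in replicate 5, 504.7 to 547.5 CPM in replicates 2 to 4 and 745 CPM in replicate 1. Co-treated replicate 6 was the highest of its group for 8 of the 10 genes (20.7% of all tested genes). It also had the lowest Havcr1 level of the group, at 61.8 CPM, and the highest proximal tubule mean, at 9.87. What these values contribute to the order was not tested.

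Each transporter was also set against the mean log2 CPM of the 12 marker genes, which was 2.75 lower with cisplatin than with vehicle and 1.25 lower with co-treatment. Of the markers 11 fell with cisplatin, from -0.44 for Slc13a3 to -7.08 for Slc7a13, and Pck1 rose by 1.05. In relation to this mean, cisplatin kidneys were lower than vehicle in Slco1a1 (-3.68), Slc22a30 (-3.22) and Slc22a7 (-2.14), without overlap between groups, as were 0.794% of all tested genes. They were higher, also without overlap, in Slc22a13 by 2.23, Slc22a6 by 1.65, Slco4c1 by 1.37, Slc22a19 by 1.11 and Slc22a12 by 0.91, as were 94.6% of all tested genes, so that a higher value here is the usual one. By the median of the markers these shares were 3.18% lower and 81.0% higher. Slc22a8 (-0.55) and Slc22a18 (-0.08) overlapped. With the median of the markers in place of their mean, Slc22a6 was 0.38 and Slc22a13 was 0.96 higher, still without overlap. Slc22a12 (-0.36) and Slc22a19 (-0.16) then turned and overlapped, Slco4c1 (0.10) overlapped, and Slc22a8 (-1.82) and Slc22a18 (-1.34) became lower without overlap. Slc22a7, Slc22a30 and Slco1a1 were below the markers under both measures, and in co-treated kidneys too, at -1.63, -2.59 and -2.81 by the mean.

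**Figure D5:**
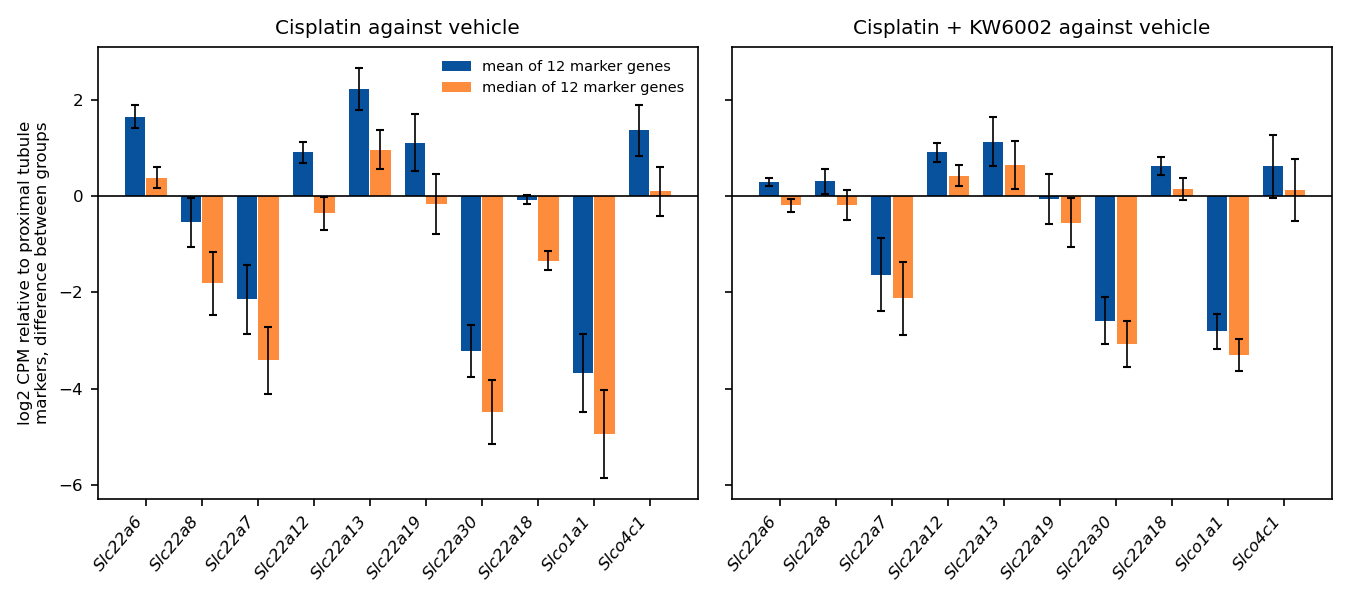
Difference from vehicle (bars) of each transporter relative to the proximal tubule markers (log2 units), with the mean (blue) or the median (orange) of the 12 marker genes as the reference. Error bars are the square root of the summed squares of the SDs of the groups compared. Slc22a7, Slc22a30 and Slco1a1 lay below 0 under both references in both panels.

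Among other genes of the SLC22 and SLCO families, 21 of the 30 on the list could be tested. With cisplatin 13 fell and 7 rose, with a median log2 fold change of -0.88, and with KW6002 added 8 were higher and 7 lower (median 0.06). Of all tested genes, 35.9% fell and 34.6% rose with cisplatin, and 28.6% were higher and 27.2% lower with KW6002 added. The cation carrier Slc22a2 (OCT2, which takes cisplatin up from blood) changed by -1.65 (SE 0.11) with cisplatin. With KW6002 added it was higher by 0.76 (SE 0.11). Slc22a28, the gene with the most windows in common with Slc22a30, fell from 80.9 ± 6.07 to 0.261 ± 0.107 CPM with cisplatin and stood at 3.87 ± 1.87 CPM with co-treatment. Slc22a29, in the same cluster, was at 4.596 ± 0.929 CPM with vehicle, 0.173 ± 0.0836 with cisplatin and 5.38 ± 1.30 with co-treatment.

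The list of 17 partners of organic anion and urate transport holds apical efflux pumps, urate carriers, dicarboxylate carriers and the scaffold Pdzk1. With cisplatin 12 fell and 5 rose (median -0.86), and with KW6002 added 10 were higher and 4 lower (median 0.39), beside the same shares of all tested genes, 35.9% and 34.6% with cisplatin and 28.6% and 27.2% with KW6002 added. Slc26a1, an oxalate and sulfate exchanger of the basolateral membrane, fell by 4.06 (SE 0.16) and then rose by 2.72 (SE 0.15). Slc13a3, the basolateral dicarboxylate carrier whose gradient drives OAT1 and OAT3, fell by 0.44 (SE 0.11). The efflux pump genes Abcc2 and Abcc4 went the other way with cisplatin. Abcc2 (MRP2) was higher by 0.80 (SE 0.10) with cisplatin and by a further 0.45 (SE 0.10) with KW6002 added. Abcc4 (MRP4) was higher by 1.34 (SE 0.15) with cisplatin and then lower by 0.45 (SE 0.14) with KW6002 added. Abcg2, another efflux pump on the list, is not reported here. The transcription factor genes Hnf4a and Hnf4g fell with cisplatin by 0.59 (SE 0.06) and 0.77 (SE 0.11). With KW6002 added, Hnf4a rose by 0.57 (SE 0.06), and Hnf4g differed by 0.20 (SE 0.11, edgeR adjusted p = 0.135).

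Likeness between genes was measured as the root mean square difference of log2 CPM profiles over the 22 libraries, each centred on its own mean, among 10245 genes with enough expression. Of the pairs among the 10, the closest were Slc22a8 with Slc22a18 (0.34), Slc22a13 with Slco4c1 (0.35) and Slc22a6 with Slc22a13 (0.39), followed by Slc22a6 with Slco4c1 and Slc22a30 with Slco1a1 (both 0.40). Slc22a30 and Slco1a1 were each the nearest of all 10245 genes to the other, followed in both cases by Slc7a13. Nearest to Slc22a6 was Lrpap1 (0.11), to Slc22a8 Ksr2 (0.19), to Slc22a12 Mut (0.15), to Slc22a18 Dao (0.19), to Slc22a13 Prdm16 (0.18), to Slc22a19 Ace (0.29), to Slc22a7 Egf (0.61) and to Slco4c1 Slc39a8 (0.18). The next gene was close behind for some, with Mcrip2 also at 0.11 for Slc22a6 and F13b at 0.20 for Slc22a8. It was farther off for Slco4c1 (Stk32b, 0.25). These are descriptions over libraries that share the group differences.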

How the data were processed

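RNA was measured in whole kidneys in 22 libraries, each read as coming from 1 mouse. The authors deposited raw counts per gene: they made stranded poly(A) libraries, read single 50-base ends, aligned them with STAR to mm10 and counted unique alignments with HTSeq 0.6.1p1, as their methods and the submitters' processing notes say. The strand setting of the counting is not given in the sources used here. A further 66 unnamed columns of the table were empty. Symbols came from GENCODE M21, and the 34 genes without a name held 0.00459% of the counts.

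Groups came from the sample labels, each of which holds a different number. The numbers were read as mouse numbers, which the labels do not state, and replicates were treated as separate animals on that reading. The 17131 genes kept by filterByExpr (minimum count 10) held 99.9% of the counts. They were fitted in edgeR 4.0.16 (R 4.3.3) with TMM factors and 1 mean per group, by the quasi-likelihood test, with Benjamini-Hochberg adjustment over all of them. The biological coefficient of variation was 0.129. The SE was taken from the log2 fold change and the F statistic. The code was tested on simulated counts. Ratios within libraries were compared by exact permutation tests in scipy 1.17.1. DESeq2 1.42.0, other scalings, filters, designs and left-out libraries were tried as alternatives. All 10 transporters were named, together with genes of lists on related carriers, partners and cell types. Some genes of these lists, and 1 motif search, are not reported here. These genes and lists were chosen with earlier results of these data known.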

Additional observations from a re-analysis of the deposited data

Results flagged for a closer look

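In 6 of the 10 genes the KW6002 effect with cisplatin differed from that without cisplatin by a test of the difference itself in the edgeR fit, as did 22.8% of all tested genes in the same direction. The difference on the log2 scale was 2.26 for Slc22a8, 2.14 for Slc22a18, 2.02 for Slc22a30, 1.92 for Slco1a1, 1.42 for Slc22a12 and 1.29 for Slc22a7. The call for Slc22a7 was lost without 11 of the 22 libraries taken one at a time and with scaling by library size (1.21, edgeR adjusted p = 0.0511). Single libraries were flagged as apart from the rest of their group in 2 of the 40 gene and group combinations examined. The combinations share libraries, and whether chance alone gives as many was not tested. Slc22a30 was at 140.2 CPM in vehicle replicate 3 against 112 to 119 CPM in the other 4 vehicle kidneys. Slc22a18 was at 434 CPM in co-treated replicate 6, the kidney with the lowest Havcr1 level and the highest adrenal gene sum of its group.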

How the results depend on the processing

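Over all alternatives the number of the 10 genes past the threshold stayed within 8 to 10 for cisplatin against vehicle, 6 to 8 for co-treatment against cisplatin, 0 for KW6002 against vehicle, 3 to 9 for co-treatment against vehicle and 3 to 7 for the difference between the KW6002 effects. The study's thresholds gave 4 for co-treatment against vehicle, and testing whether changes exceeded 1 on the log2 scale gave 3 there and 3 for the difference. Over all genes the study's thresholds gave 4137, 1766, 0, 2300 and 1469 calls in these 5 comparisons, and testing for changes beyond 1 gave 2854, 675, 0, 1145 and 446, where the main counts were 12085, 9564, 3, 10222 and 7312. For KW6002 against vehicle the count over all genes was 0 with only the groups compared, 40 with the number series as a covariate, 8 with the mice numbered in the 500s, 99 with DESeq2 and 1 without vehicle replicates 1 and 2 together, a setting chosen after seeing the data. Leaving out 1 library gave 1 to 64, the highest without vehicle replicate 3. The cause was not tested.

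Scaling by library size moved the median change over all genes to 0.20 (log2) for cisplatin and 0.16 for co-treatment against vehicle. The split of lower and higher calls went from 6155 and 5930 to 4244 and 8157 in the first, from 5114 and 5108 to 3525 and 7394 in the second, from 4664 and 4900 to 5435 and 4091 for co-treatment against cisplatin, and from 3410 and 3902 to 4107 and 3041 for the difference.

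Changes of sign occurred only in values that did not pass the test or had none. For KW6002 against vehicle, Slc22a8 turned to 0.00055 with relative log expression factors, 0.0069 with library size, 0.00024 with only the groups compared, 0.027 with the number series, 0.00037 with DESeq2, 0.15 without vehicle replicates 1 and 2, and ran from -0.094 to 0.082 without single libraries. Without single libraries Slc22a6 ran from -0.0030 to 0.029. Slc22a12 turned to -0.058 with the mice numbered in the 500s and ran from -0.0075 to 0.036 without single libraries, and Slco4c1 to -0.17 with those mice and -0.16 without vehicle replicates 1 and 2. The difference for Slc22a13 turned to -0.024 with library size and ran from -0.046 to 0.16 without single libraries. For values relative to the tubule markers, the turns listed first are those whose groups did not overlap by the mean. By the median, Slc22a12 (-0.36) and Slc22a19 (-0.16) turned with cisplatin, Slc22a6 (-0.19) turned for co-treatment against vehicle, and Slco4c1 (0.032) turned for co-treatment against cisplatin. Some values with overlap by the mean turned too. Slc22a8 for co-treatment against vehicle went from 0.30 to -0.18 by the median. Slc22a18 with cisplatin went from -0.08 to 0.13 by the mean without Slc13a3. By the median, 4 genes did not overlap between co-treatment and vehicle where 7 had not by the mean (58.8% and 79.4% of all tested genes).

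Nothing in the labels says that replicate numbers pair the samples. Deviations from group means correlated above 0.1 in 7 of 31 same-numbered pairs, with r from -0.175 to 0.405. The median r was 0.0085 for same-numbered pairs and -0.0014 for the other pairs, which does not settle whether some numbers pair mice. With the replicate block, 10, 8, 0, 8 and 6 of the 10 genes passed in the 5 comparisons, 12087, 9380, 1, 10124 and 7295 of all genes passed, and Slc22a6 turned to -0.027 for KW6002 against vehicle. Depth limits Slco1a1 and Slc22a30 most, with 21 and 25 counts in cisplatin replicate 1.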
